A study of Mus musculus with 4 samples.

Results

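The genes described here are 10 genes of growth arrest: Cdkn1a, Cdkn1b, Cdkn2a, Mdm2, Ccng1, Btg2, Gadd45a, Gadd45b, Gadd45g and Plaur. They were chosen by name, as p53 targets or genes tied to senescence, and all 10 were found among the 31053 genes of the count matrices. Single mouse cells had been sorted as CD45hi (CD45 is carried by leukocytes), and their RNA was counted by 10x Chromium 3' sequencing, chemistry v2. There were 4 groups of 1 library each, aged brain and young brain, and aged spleen and young spleen. The labels name a tamoxifen injection, 4 weeks before tissues were taken to follow tdTomato+ NK cells, for the mice of all 4 libraries, without saying whether those are the mice sequenced. They give neither ages in numbers, nor the strain, nor how many mice were pooled. They also call the cells of every library neuroblasts, a name not used here.

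p53 is a transcription factor that accumulates after DNA damage and other stress and switches on genes that halt the cell cycle. Cdkn1a encodes p21, which blocks cyclin-dependent kinases (CDKs), while Mdm2 encodes the ligase that degrades p53 and so closes a feedback loop. Several of these genes also answer signals other than p53 in immune cells, and a lasting arrest with p21 or p16 is one hallmark of senescence.

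The promoters of 4 members held the p53 half-site decamer RRRCWWGYYY (both strands read as 1 site, since the pattern is the same on both). They are shown because they hold this pattern, at more positions in Cdkn1a than in the other genes. Its part in the aged over young ratios was not tested. The sequences are RefSeq's, build GRCm38.p6, from 250 bases before to 50 bases after the gene's start, 5′ to 3′ on the gene's strand, with the decamer in capitals. The windows are chr17:29090729-29091028 (plus strand) for Cdkn1a, chr10:117710709-117711008 (minus) for Mdm2, chr11:40755237-40755536 (minus) for Ccng1 and chr6:67037358-67037657 (minus) for Gadd45a.
Cdkn1a, promoter 1: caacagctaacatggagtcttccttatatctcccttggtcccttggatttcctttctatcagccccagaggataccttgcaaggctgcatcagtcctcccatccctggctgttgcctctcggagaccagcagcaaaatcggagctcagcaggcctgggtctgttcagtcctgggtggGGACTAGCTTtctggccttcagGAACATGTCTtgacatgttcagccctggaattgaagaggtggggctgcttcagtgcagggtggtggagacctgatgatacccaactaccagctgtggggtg
Mdm2: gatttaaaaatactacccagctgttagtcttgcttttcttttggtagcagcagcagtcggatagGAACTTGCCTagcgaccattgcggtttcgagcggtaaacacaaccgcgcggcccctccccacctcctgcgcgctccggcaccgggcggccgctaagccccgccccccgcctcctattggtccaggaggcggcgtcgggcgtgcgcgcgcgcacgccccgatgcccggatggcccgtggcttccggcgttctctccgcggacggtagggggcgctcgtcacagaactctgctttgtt
Ccng1: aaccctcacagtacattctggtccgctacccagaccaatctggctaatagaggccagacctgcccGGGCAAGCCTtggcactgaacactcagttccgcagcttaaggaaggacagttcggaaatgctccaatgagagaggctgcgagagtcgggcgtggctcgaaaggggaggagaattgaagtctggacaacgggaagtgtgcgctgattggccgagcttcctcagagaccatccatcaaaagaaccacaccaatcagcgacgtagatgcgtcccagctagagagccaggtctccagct
Gadd45a: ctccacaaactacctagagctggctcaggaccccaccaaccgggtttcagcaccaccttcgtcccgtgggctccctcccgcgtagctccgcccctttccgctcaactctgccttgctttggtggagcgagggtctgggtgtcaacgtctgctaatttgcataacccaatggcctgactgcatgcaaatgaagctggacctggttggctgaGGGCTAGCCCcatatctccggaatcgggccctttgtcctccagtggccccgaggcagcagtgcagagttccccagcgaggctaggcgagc
The decamer starts at bases −73 and −51 from the start used for promoter 1 of Cdkn1a, and promoter 2 of Cdkn1a held none. It starts at −186 in Mdm2, at −185 in Ccng1 and at −40 in Gadd45a. It occurs in 2745 of 32851 RefSeq promoters of this length (8.36%), so a match describes letters and no binding. The palindromic cAMP response element TGACGTCA, found in 1.79% of promoters, lies at −166 of Btg2. The AP-1 element TGANTCA, found in 7.81%, lies at −69 of Plaur. None of the 3 patterns was found in the other windows of the 10 genes.

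The matrices held between 26384220 and 57011537 UMIs (unique molecular identifiers, tags that mark single RNA molecules) per library. Cells kept numbered 11007 in aged brain, 8152 in young brain, 5337 in aged spleen and 6370 in young spleen. Of the young brain cells, 4798 (58.9%) carried barcodes with more UMIs in the aged spleen and were left out, which left 3354. In turn, 4478 of the 5337 aged spleen cells sat at a barcode that was also a cell in another library. For Cdkn1a, Gadd45b, Gadd45g and Plaur the spleen ratios are therefore given also for aged spleen cells at barcodes of their own, which was not done for the genes of other lists. Classes were named by marker genes as NK-like, B-like, microglia-like and border macrophage-like, and T-like cells were split by their own Cd4 and Cd8 UMIs. T-like cells assigned to neither numbered 783 in aged and 1002 in young spleen and were in none of the 6 classes. In aged spleen their median was 5292 UMIs, against 5397.5 in CD4 T and 7085 in CD8 T cells. Aged and young cells numbered 745 and 1788 for NK, 578 and 458 for CD4 T, 400 and 266 for CD8 T and 1926 and 2390 for B in spleen. Of the CD4 T cells, 390 aged and 97 young ones were in cluster 15, which Ctla4 and Foxp3 lead, and the part of this makeup was not tested beyond the members' values by cluster. In brain, aged and young cells numbered 6461 and 2773 for microglia and 975 and 201 for border macrophages. Aged brain NK-like cells numbered 20 and young brain NK-like cells 4, so NK cells of the brain were compared only with the aged spleen. Brain T and B cells, at most 16 per class in the aged brain, were not compared. Median UMIs per cell were 4511 and 3978 in aged and young NK-like cells, and 2341 and 2348 in microglia. Median mitochondrial shares were higher in aged cells in all 6 classes, from 3.05% against 2.37% in microglia to 6.29% against 5.51% in B cells, and their part in the results was not tested. NK markers summed to 9318 UMIs per 1000000 UMIs of the class (CPM) in aged and 14150 CPM in young NK-like cells, with all 10 markers detected in both. Border macrophage markers summed to 5483 CPM in aged and 9024 CPM in young border macrophages, while microglia markers there summed to 7502 CPM in aged and 4632 CPM in young ones, and their part was not tested.

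With 1 library per group no test was possible. Intervals are exact 95% intervals for counting error only, and they do not cover differences between mice. A member counted as measured when it held at least 50 UMIs over both libraries, and as past the fold when its ratio of CPM was at least 1.5 or at most its inverse. In NK-like cells 8 members were measured, 2 higher and 1 lower in aged spleen, against 18.0% of 9073 genes past the fold (6.69% higher, 11.3% lower). In CD4 T cells 9 were measured, 2 higher and 1 lower, against 18.9% of 7947 genes (10.0% higher, 8.85% lower). In CD8 T cells 8 were measured, 3 higher and none lower, against 15.7% of 7022 genes (7.5% higher, 8.23% lower). In B-like cells 9 were measured, 3 higher and 1 lower, against 14.6% of 9591 genes (5.32% higher, 9.27% lower). Microglia had 9 measured, 1 higher and 3 lower in aged brain, against 17.3% of 11008 genes (12.7% higher, 4.63% lower). Border macrophages had 5 measured and 1 lower, against 28.3% of 6983 genes (18.5% higher, 9.78% lower). Median log2 ratios of the measured members were 0.16, 0.31, 0.38 and 0.23 in NK, CD4 T, CD8 T and B cells, where all genes had −0.13, −0.03, −0.07 and −0.13. In microglia and border macrophages the members' medians were −0.185 and −0.28, where all genes had 0.08 and 0.06. With 5 to 9 measured members these medians are descriptions.

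**Figure D1:**
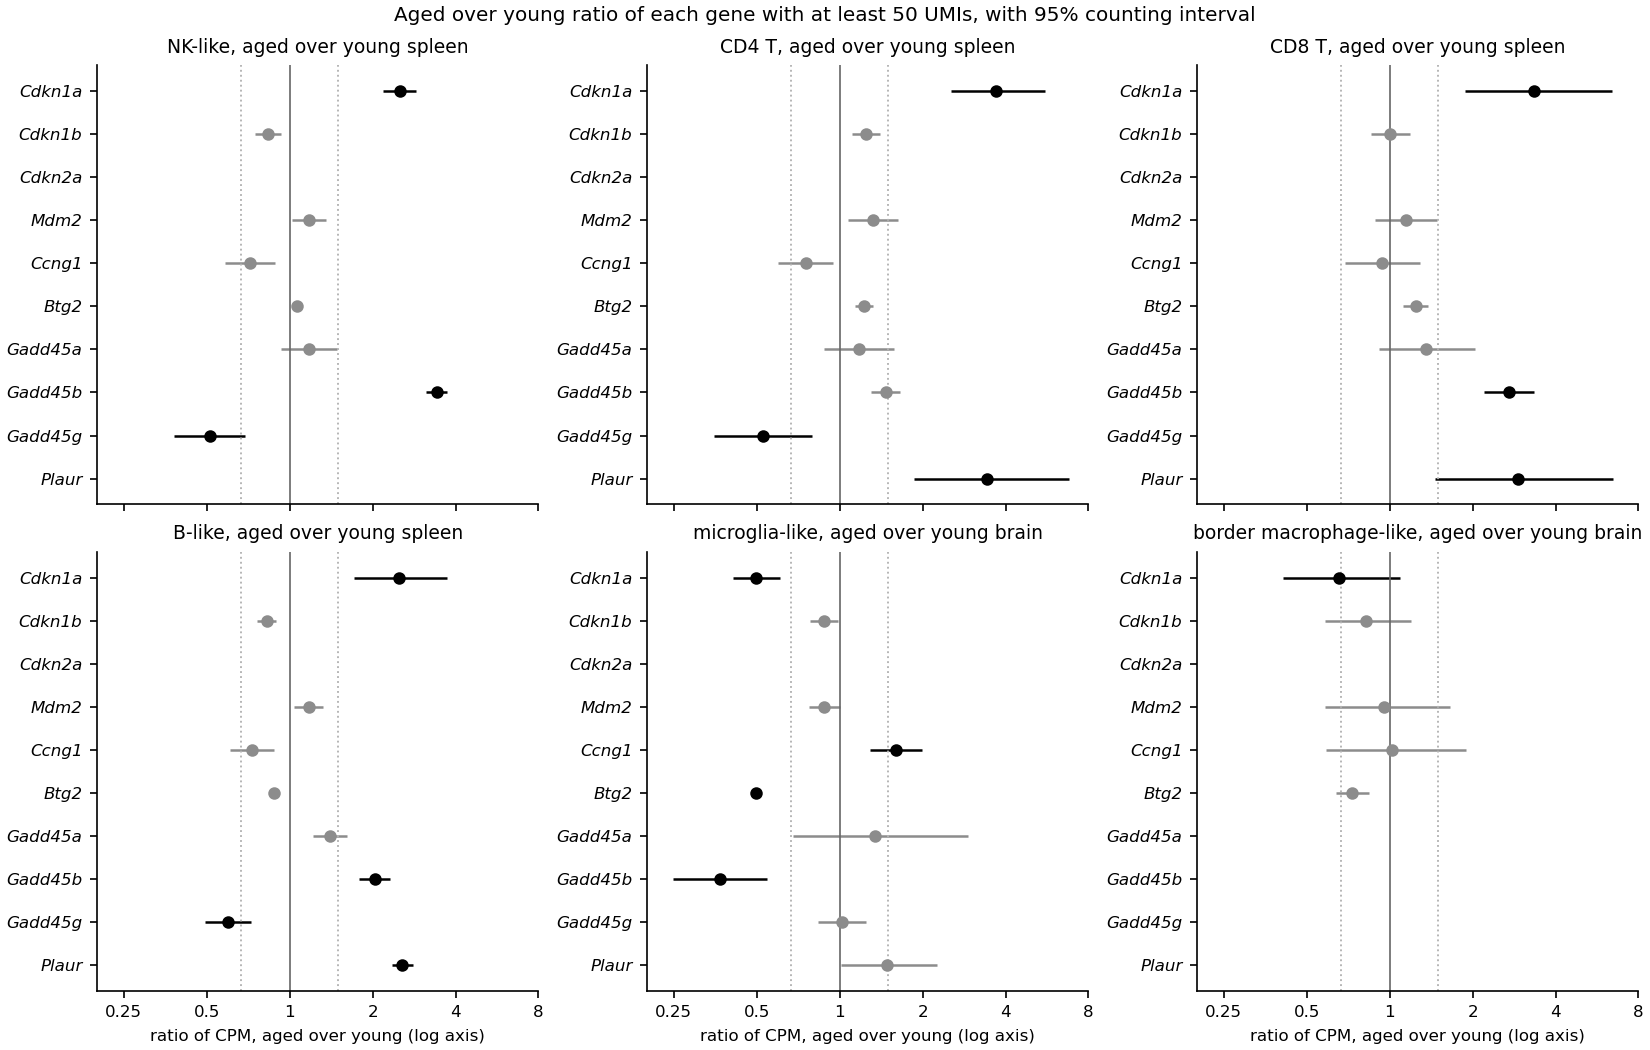
Ratio of CPM, aged over young (log axis), of each member with at least 50 UMIs in 6 classes, with 95% counting intervals; dotted lines mark the 1.5-fold bounds and black points lie past them. Cdkn1a lies right of 1 in the 4 spleen classes, from 2.503 to 3.71, and left of 1 in both brain classes, at 0.50 and 0.66.

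Cdkn1a (chr17:29090976-29100727, GENCODE, GRCm38) encodes p21, the CDK inhibitor that p53 induces. Its level in spleen was higher in aged than in young cells of all 4 classes, and in brain its ratios lay below 1. NK-like cells had the most Cdkn1a of the 6 classes, at 134 CPM (122 to 147) in aged spleen, against 53.5 CPM (48.4 to 59.0) in young spleen. CD4 T cells had 49.6 CPM in aged spleen, against 13.4 CPM in young spleen. CD8 T cells had 26.2 CPM in aged spleen, against 7.85 CPM in young spleen. Among these 3 classes no aged interval overlapped its young one. B-like cells held little, at 10.3 CPM in aged spleen, against 4.12 CPM in young spleen. The ratios were 2.51 (2.19 to 2.87) in NK, 3.71 (2.54 to 5.56) in CD4 T, 3.34 (1.88 to 6.39) in CD8 T and 2.503 (1.71 to 3.71) in B cells. In microglia Cdkn1a had 14.3 CPM (12.6 to 16.3) in aged brain, against 28.7 CPM (24.8 to 33.2) in young brain, a ratio of 0.50 (0.41 to 0.61). Border macrophages had 32.4 CPM in aged brain, against 49.3 CPM in young brain, and that ratio of 0.66 (0.41 to 1.09) had an interval that reaches past 1. With the members kept in the clustering the border macrophage ratio was 1.06, and at a mitochondrial limit of 5% the CD8 T ratio was 1.47, under the fold. In aged libraries the order was NK, CD4 T, border macrophage, CD8 T, microglia and B, where border macrophages overlapped CD8 T and microglia overlapped B. In young libraries the order was NK, border macrophage, microglia, CD4 T, CD8 T and B, and among neighbours microglia and CD4 T alone had intervals that did not overlap.

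The share of cells with Cdkn1a gave the same picture. It was 35.6% (32.1 to 39.1) of aged and 16.3% (14.6 to 18.1) of young NK-like cells, with the lowest spleen class compared, B cells, at 4.00% and 1.51% (median 4166.5 and 3792.5 UMIs). After thinning each cell to 1000 UMIs it was 13.2% of aged and 5.59% of young NK-like cells, with 10 and 34 shallower cells left out. Thinned shares were 6.23% and 1.10% in CD4 T cells and 3.25% and 0% in CD8 T cells, where the young cells held 14 UMIs before thinning. In microglia the thinned shares were 1.28% in aged and 2.58% in young brain. Of the 6 classes compared, NK-like cells had Cdkn1a in the largest share of cells at both ages.

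**Figure D2:**
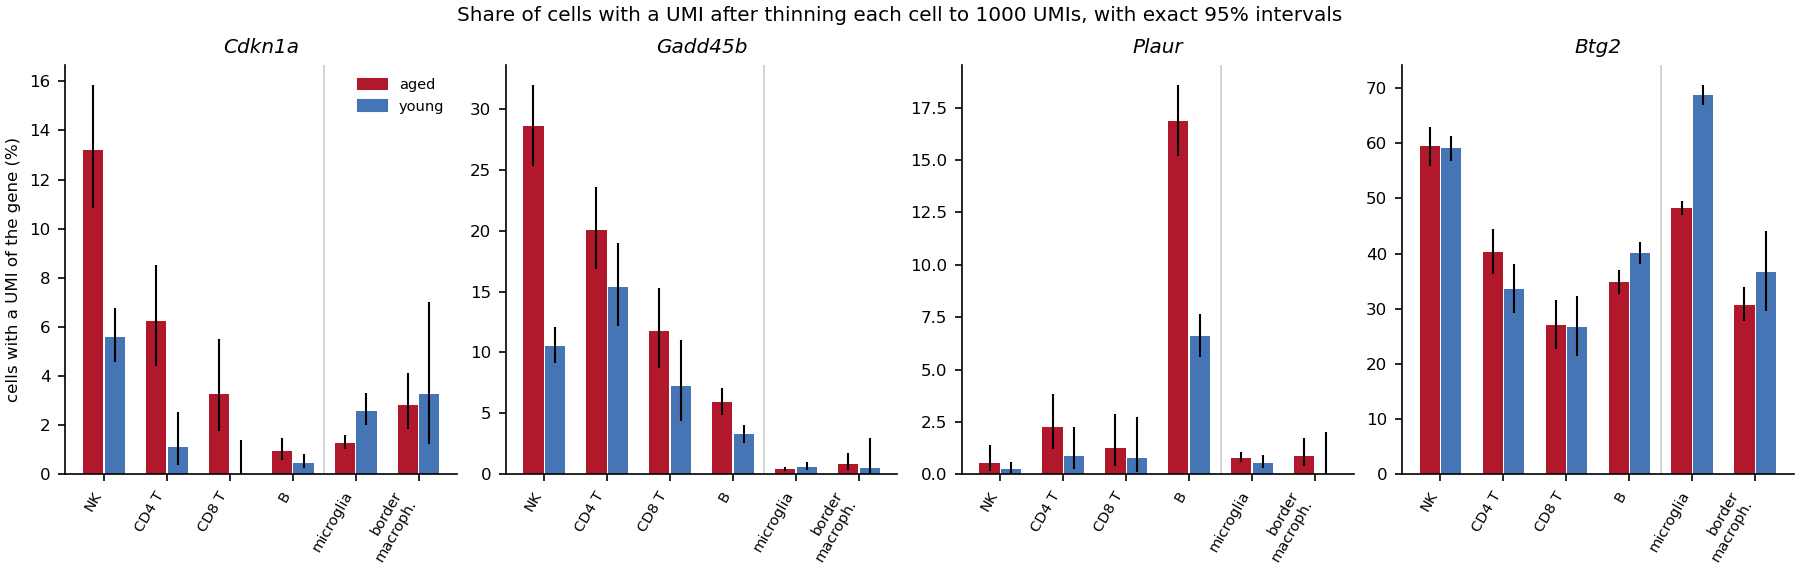
Percent of cells with at least 1 UMI after thinning to 1000 UMIs, aged left of young in each class, with exact 95% binomial intervals. Shares with Cdkn1a and Gadd45b in NK-like cells were 13.2% and 28.6% in aged spleen and 5.59% and 10.6% in young spleen.

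Shared barcodes bear on the size of this difference in NK-like cells. The 84 aged spleen NK-like cells at barcodes of their own (median 2447.5 UMIs) had 71.7 CPM of Cdkn1a, from 18 UMIs, and the 661 at shared barcodes (median 4673 UMIs) had 139 CPM. Against young spleen without shared barcodes the ratio in those 84 cells was 1.34 (0.79 to 2.14), an interval that includes 1. In CD4 T cells the 51 unshared cells had a ratio of 3.93 (1.98 to 7.44), close to that of all cells. In the 15 unshared CD8 T cells Cdkn1a had 0 UMIs. In B cells the 165 unshared cells gave 1.92 (0.50 to 5.29) from 4 UMIs. The difference was therefore seen without shared barcodes in CD4 T cells, and in the other 3 classes the interval included 1 or no UMI was found.

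Free RNA, measured in barcodes of at most 100 UMIs, also held more Cdkn1a in the aged spleen, at 44.9 CPM against 17.3 CPM in the young spleen. NK-like cells stood above this level at both ages, whereas CD8 T and B cells stood below it at both. The CD4 T level was within counting error of it at both ages. In brain the free RNA held 31.5 CPM in both libraries, so the microglial level was at or below the free RNA in each. Barcodes shared between libraries were not left out of the free RNA, here or for the other genes. How much aged spleen RNA the young brain free RNA held was not tested. The share of microglia with Cdkn1a was at most 4.54%, and the part of free RNA in it was not tested. NK and T markers summed to 2.497 and 4.82 CPM in aged microglia, and to 8.44 and 11.1 CPM in young ones. Free RNA's part in the ratios was not tested.

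The T-like clusters were named with few T markers among their leading genes, so they are given by number. Cluster 8, led by Dapl1, Cd8b1 and Lef1, had 9.35 CPM of Cdkn1a in aged and 2.36 CPM in young spleen. Cluster 6, led by Ly6c2, Cd7 and Trdc, had 98.4 CPM in aged and 21.0 CPM in young spleen, a ratio of 4.68 (3.51 to 6.34). Cluster 9, led by Cxcr6 and Zbtb16, had 122 CPM in aged and 22.3 CPM in young spleen. Cluster 15, led by Ctla4 and Foxp3, had 57.9 CPM in aged and 14.2 CPM in young spleen. Cdkn1a thus varied widely among T-like clusters of the aged spleen, and it was higher there than in young spleen in each of the 4. Microglia split by library, with 6014 aged against 76 young cells in cluster 0, whereas cluster 5 had 224 aged against 2577 young. Cdkn1a had 13.5 CPM in aged and 29.9 CPM in young brain in cluster 0, a ratio of 0.45 (0.19 to 1.40). In cluster 5 it had 11.2 CPM in aged and 27.4 CPM in young brain, a ratio of 0.41 (0.13 to 0.97), the only interval of the 3 that left out 1. In cluster 16, led by Cxcl10 and Ifit3, it had 36.6 CPM in aged and 52.1 CPM in young brain, with a ratio of 0.70 (0.36 to 1.39).

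**Figure D3:**
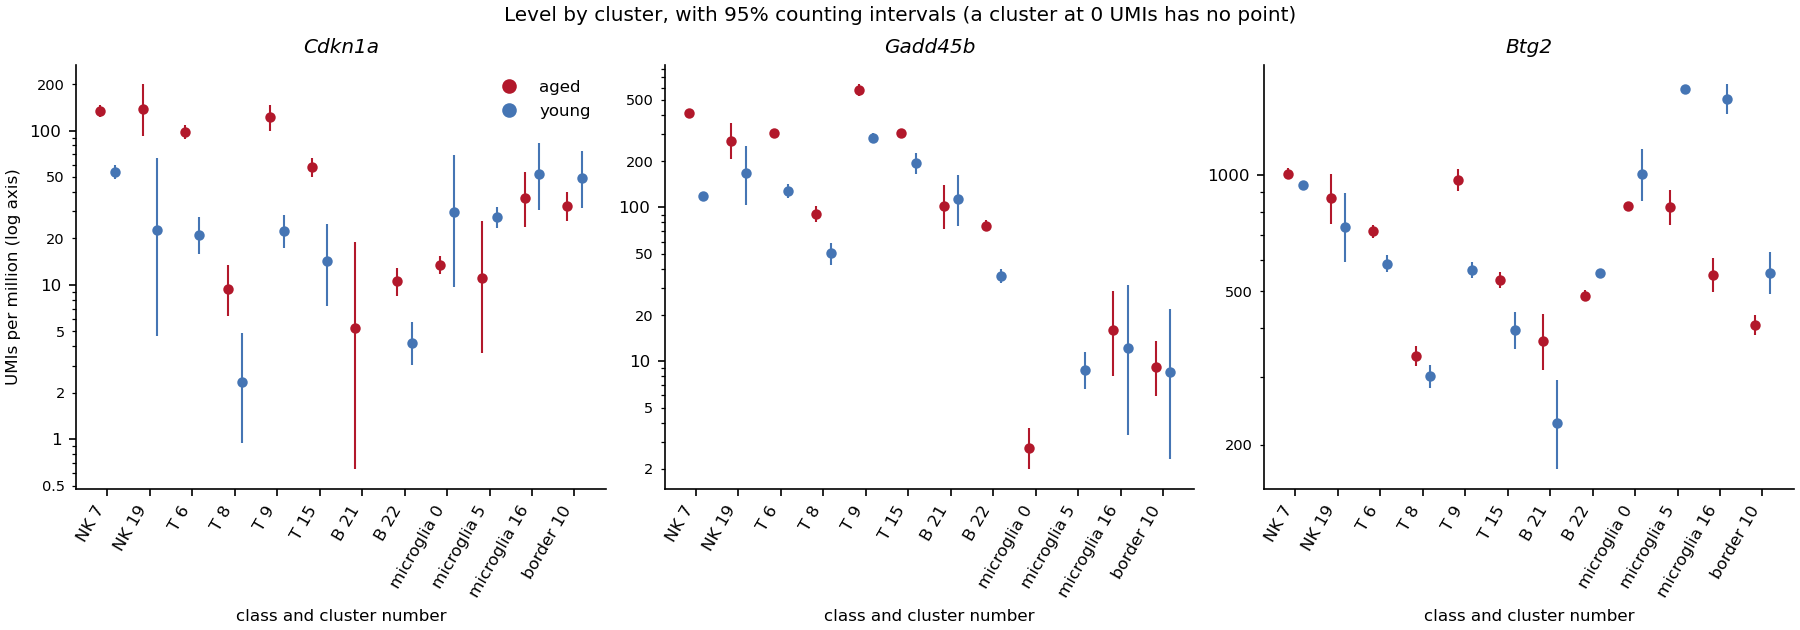
CPM of Cdkn1a, Gadd45b and Btg2 (log axes) in each cluster of the 6 classes, aged left of young, with 95% counting intervals. The T-like clusters also take in T-like cells assigned to neither Cd4 nor Cd8. The T-like clusters 6, 9 and 15 hold 57.9 to 122 CPM of Cdkn1a in aged spleen, against 14.2 to 22.3 CPM in young spleen.

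Cdkn1b (chr6:134920401-134925513) encodes p27, a CDK inhibitor of resting cells that is not a classical p53 target. It stayed within 1.5-fold in all 6 classes. It had 229 CPM in aged and 184 CPM in young CD4 T cells, the highest of the 6 classes, and 133 CPM in aged and 159 CPM in young NK-like cells. Ratios ran from 0.82 in border macrophages to 1.24 in CD4 T cells, so no class showed a difference in Cdkn1b of the size seen for Cdkn1a.

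Cdkn2a (chr4:89274471-89294653, minus strand) encodes p16 and p19ARF, which share exons and which these gene counts cannot separate. It was close to undetected. NK-like cells had 0 UMIs in 745 aged and 1788 young cells, which allows at most 1.05 CPM in aged and 0.49 CPM in young spleen. CD8 T cells also had 0 UMIs at both ages, and CD4 T and B cells had 2 UMIs each in aged and 1 each in young spleen. Microglia had 4 UMIs in 6461 aged cells and 0 in 2773 young cells, whose upper bound of 0.58 CPM lies above the aged level of 0.24 CPM. Border macrophages had 3 UMIs in aged and 1 UMI in young brain. No difference in Cdkn2a between ages was detectable at this depth.

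Mdm2 (chr10:117688875-117710758, minus strand), the p53 ligase and p53 target, varied least of the members among the 12 class levels, by 2.2-fold between the highest and the lowest, leaving out Cdkn2a. It had 85.7 CPM in aged and 73.1 CPM in young NK-like cells, and 79.3 CPM in aged and 60.02 CPM in young CD4 T cells. The ratios of 1.17 (1.02 to 1.35) and 1.32 (1.08 to 1.63) stayed under 1.5. In microglia it had 48.5 CPM in aged and 55.2 CPM in young brain.

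Ccng1 (chr11:40748552-40755311, minus strand) encodes cyclin G1, a p53 target that takes part in the control of p53 through Mdm2. Its ratio lay on the other side of 1 from that of Cdkn1a in all 6 classes, within counting error in CD8 T cells and border macrophages. NK-like cells had 36.1 CPM in aged and 50.04 CPM in young spleen, a ratio of 0.72 (0.58 to 0.88). CD4 T and B cells were also lower in aged spleen, at 0.75 (0.60 to 0.95) and 0.73 (0.61 to 0.88), and CD8 T cells were at 0.94 (0.69 to 1.29), which includes 1. Microglia had 27.2 CPM in aged brain, against 17.03 CPM in young brain, a ratio of 1.60 (1.29 to 1.99). The free RNA of the brain held 33.7 CPM in aged and 18.7 CPM in young brain, and its part in these levels was not tested. The free RNA of the spleen, at 30.9 CPM in aged and 49.7 CPM in young spleen, was close to the NK-like levels, and its part was not tested. By microglial cluster the ratio was 1.51 (0.51 to 7.33) in cluster 0, 2.07 (1.14 to 3.52) in cluster 5 and 2.15 (0.71 to 8.72) in cluster 16, so the interval left out 1 in cluster 5 alone.

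Btg2 (chr1:134075170-134079120, minus strand) encodes an antiproliferative adaptor of the CCR4-NOT deadenylase and is both a p53 target and an immediate early gene. Its largest difference was in microglia, at 817 CPM (803 to 831) in aged brain, against 1645 CPM (1614 to 1677) in young brain. The ratio was 0.50 (0.48 to 0.51), and thinned shares were 48.3% of aged and 68.8% of young microglia. Both levels lay above the free RNA, at 431 CPM in aged and 497 CPM in young brain. Within clusters the size differed: the ratio was 0.83 (0.71 to 0.97) in cluster 0, 0.49 (0.44 to 0.55) in cluster 5 and 0.35 (0.31 to 0.40) in cluster 16. Border macrophages had 408 CPM in aged and 557 CPM in young brain. In spleen Btg2 differed little, with 998 CPM in aged and 937 CPM in young NK-like cells, and with ratios between 0.88 in B and 1.24 in CD8 T cells.

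**Figure D4:**
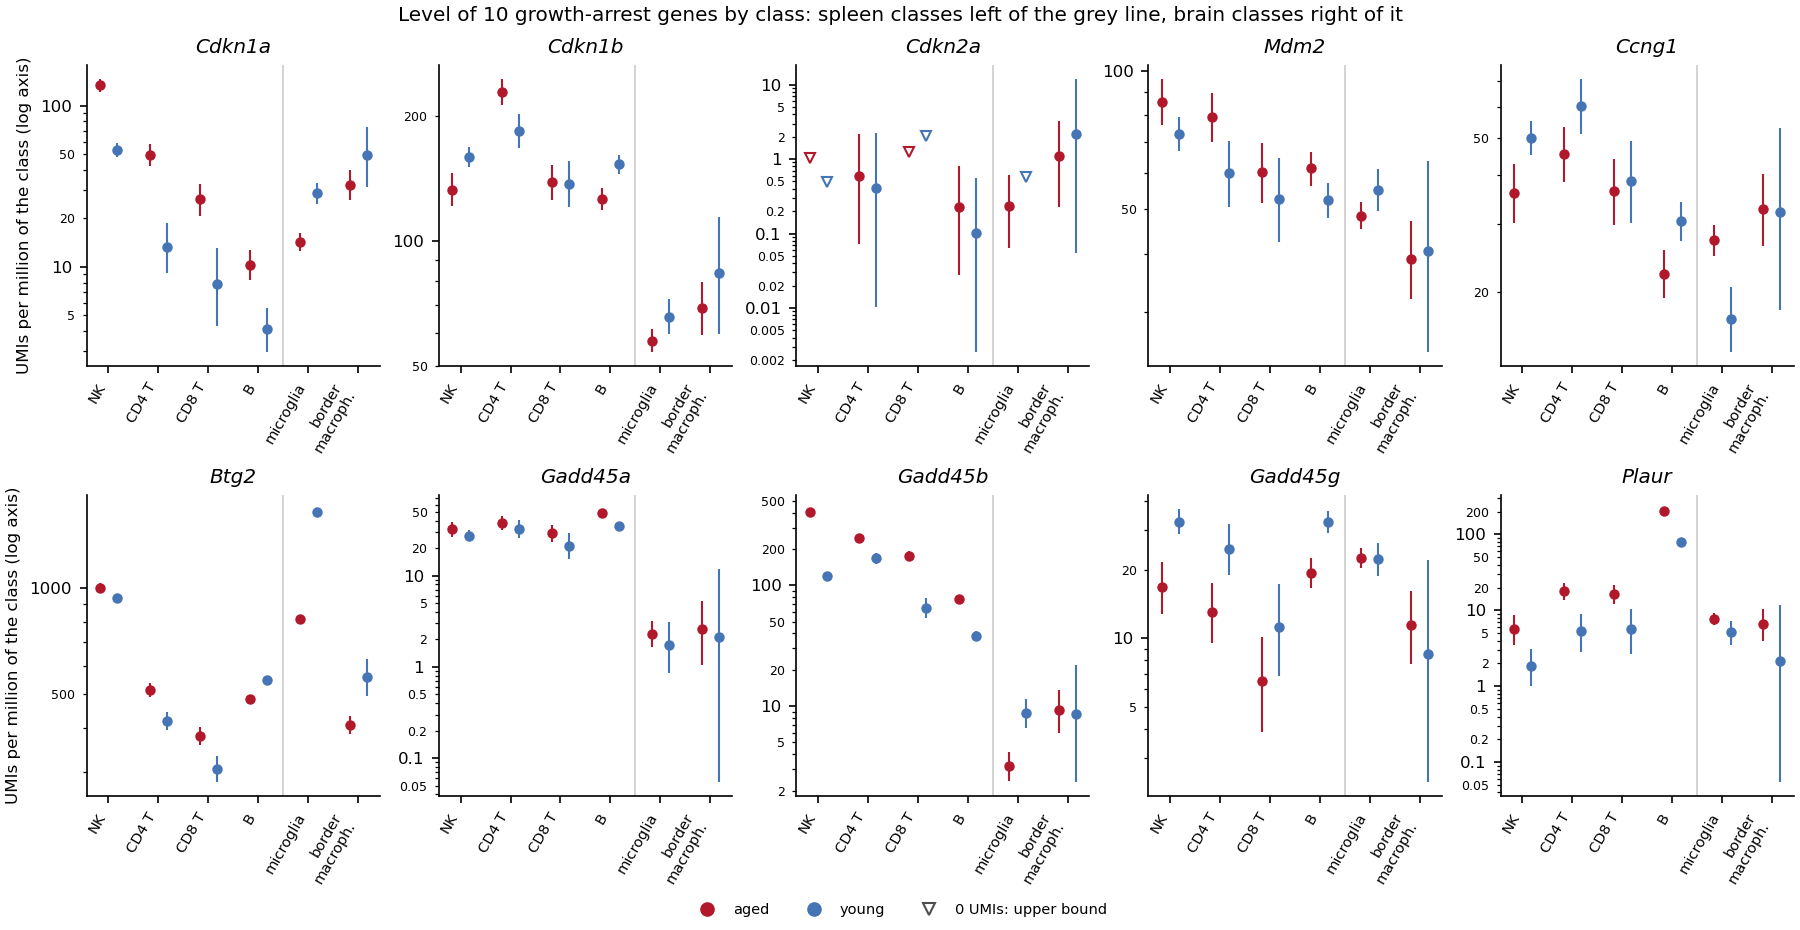
CPM of each member (log axes) in 6 classes, aged left of young, with 95% counting intervals; spleen classes lie left of the grey line and open triangles are upper bounds where no UMI was found. Btg2 is highest in young microglia at 1645 CPM, and Plaur in aged B cells at 206 CPM.

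The Gadd45 genes encode small stress proteins that bind PCNA and p21 and activate p38 and JNK kinases through MTK1. The 3 paralogs differed in direction. Gadd45b (chr10:80930073-80932204), which NF-κB and TGF-β also induce, had 406 CPM (385 to 427) in aged NK-like cells, against 119 CPM (111 to 127) in young ones. CD8 T cells had 176 CPM in aged and 65.1 CPM in young spleen. CD4 T cells had 246 CPM in aged and 167 CPM in young spleen. The aged intervals lay above the young ones in all 3 classes. B cells had 77.5 CPM in aged and 38.1 CPM in young spleen, and 1 aged B cell held 30 of the 684 UMIs. Ratios were 3.41 (3.14 to 3.72) in NK, 2.70 (2.21 to 3.33) in CD8 T, 2.04 (1.79 to 2.31) in B and 1.47 (1.304 to 1.66) in CD4 T cells. In aged cells at unshared barcodes the ratios were 3.30 (2.66 to 4.07) in NK, 2.84 (1.54 to 4.88) in CD8 T, 3.13 (2.34 to 4.12) in B and 1.68 in CD4 T cells. By T-like cluster the ratios were 2.37 in cluster 6, 1.803 in cluster 8, 2.03 in cluster 9 and 1.57 in cluster 15. Gadd45b was therefore higher in aged spleen with and without shared barcodes in each of the 4 classes. Free RNA held 213 CPM in aged and 100.5 CPM in young spleen, and its part was not tested. NK-like and CD4 T cells lay above it at both ages, and CD8 T and B cells below it. Microglia had 3.21 CPM in aged and 8.75 CPM in young brain, a ratio of 0.37 (0.25 to 0.54). By microglial cluster the ratio was 1.31 (0.39 to 5.65) in cluster 16. No UMI was found in the 76 young cells of cluster 0 or in the 224 aged cells of cluster 5. Border macrophages had 25 UMIs in aged and 4 UMIs in young brain, under the minimum for a call, at 1.07 (0.37 to 4.24). Free RNA of the brain held 60.9 CPM in aged and 110.2 CPM in young brain, above the microglial levels, and its part in them was not tested.

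Gadd45a (chr6:67035096-67037457, minus strand) is the p53 target of the family. B cells had 48.7 CPM in aged and 34.7 CPM in young spleen, a ratio of 1.40 (1.21 to 1.62). NK-like cells had 32.4 CPM in aged and 27.4 CPM in young spleen. Microglia had 2.32 CPM in aged and 1.72 CPM in young brain. Free RNA held 59.0 CPM in aged and 44.3 CPM in young spleen, and 9.24 CPM in aged and 18.3 CPM in young brain. All of these class levels lay below it, and its part in them was not tested. None of the measured classes passed 1.5-fold.

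Gadd45g (chr13:51846678-51848468) went the other way from Gadd45b in spleen. NK-like cells had 16.8 CPM (12.8 to 21.6) in aged spleen, against 32.5 CPM (28.6 to 36.9) in young spleen. CD4 T cells had 13.1 CPM in aged and 24.7 CPM in young spleen, and B cells had 19.4 CPM in aged and 32.3 CPM in young spleen. The ratios were 0.52 (0.38 to 0.69), 0.53 (0.35 to 0.79) and 0.60 (0.49 to 0.72) in NK, CD4 T and B cells. CD8 T cells had 19 UMIs in aged and 20 UMIs in young spleen, under the minimum for a call. At unshared barcodes the ratio was 0.61 (0.20 to 1.45) in NK and 0.57 in CD4 T cells, but 1.10 (0.64 to 1.77) in B cells. By T-like cluster it was 0.497 (0.34 to 0.72) in cluster 6, and 0.67 to 0.81, with intervals that include 1, in clusters 8, 9 and 15. In microglia it had 22.6 CPM in aged and 22.2 CPM in young brain, a ratio of 1.02 (0.84 to 1.24). Free RNA held 15.65 CPM of Gadd45g in aged and 23.7 CPM in young spleen, and 35.9 CPM in aged and 18.3 CPM in young brain. Its part in these levels and ratios was not tested.

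Plaur (chr7:24462484-24475968) encodes the urokinase receptor, a surface protein of myeloid and activated cells that has been used as a marker of senescent cells. B cells held the most of the 6 classes, with 206 CPM (197 to 216) in aged spleen, against 80.3 CPM (74.9 to 86.1) in young spleen. The ratio was 2.57 (2.36 to 2.79), and in the 165 unshared aged B cells it was 2.52 (2.03 to 3.095). Thinned shares with Plaur were 16.9% of aged and 6.58% of young B cells, whereas in NK-like cells they were 0.54% and 0.23%. The free RNA held 91.7 CPM in aged and 47.7 CPM in young spleen, so B cells stood above it and NK-like cells, at 5.68 CPM in aged and 1.87 CPM in young spleen, below it. CD4 T cells had 18.1 CPM in aged and 5.27 CPM in young spleen, a ratio of 3.44 (1.87 to 6.82). CD8 T cells had 16.4 CPM in aged and 5.61 CPM in young spleen, a ratio of 2.92 (1.46 to 6.46). Among T-like clusters, cluster 8 had 30.6 CPM in aged and 7.76 CPM in young spleen, and the other 3 had at most 22 UMIs each. At unshared barcodes the CD4 T ratio was 5.98 (2.26 to 15.1) from 9 UMIs, and CD8 T cells held 1 UMI. These T cell levels also lie below the free RNA, whose part was not tested. In microglia Plaur had 7.67 CPM in aged and 5.16 CPM in young brain, a ratio of 1.49 (1.01 to 2.25), under the fold and below the free RNA.

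NK-like cells of the aged brain were set against those of the aged spleen. Their 20 cells held 2 UMIs of Cdkn1a, or 33.6 CPM (4.07 to 121), against 134 CPM in aged spleen NK-like cells. Gadd45b had 1 UMI, or 16.8 CPM (0.43 to 93.5), against 406 CPM in aged spleen. Btg2 had 22 UMIs, or 369 CPM (232 to 559), against 998 CPM in aged spleen. The ratios were 0.25 (0.03 to 0.91), 0.04 (0.001 to 0.23) and 0.37 (0.23 to 0.56). Gadd45g had 4 UMIs, or 67.2 CPM, against 16.8 CPM in aged spleen, a ratio of 4.01 (1.06 to 10.8). Of 8 members measured, 1 was higher and 5 lower past 1.5-fold, against 43.4% of 6638 genes (22.2% higher, 21.2% lower). Of the 5, Mdm2 at 0.39 (0.05 to 1.43) and Ccng1 at 0.47 (0.01 to 2.64) rest on 2 and 1 UMIs in brain, with intervals that include 1. Without barcodes of 2 libraries the count was 2. Microglia markers summed to 2200 CPM in these brain cells, against 36.3 CPM in the aged spleen ones, and the part of such RNA was not tested.

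Of 26 other p53 target genes, 18 were measured in NK-like cells, 1 past 1.5-fold higher in aged spleen and 2 lower, with a median log2 ratio of −0.30 where all genes had −0.13. Sesn2, a stress-induced inhibitor of mTORC1, had 18.7 CPM in aged and 8.83 CPM in young NK-like cells, a ratio of 2.12 (1.49 to 3.03). Tigar, which lowers glycolysis, had 3.69 CPM in aged and 8.83 CPM in young NK-like cells. The CD4 T class had 5 higher and 2 lower of 17, CD8 T cells 2 and 2 of 13, and B cells 3 and 1 of 18. In CD4 T cells the proapoptotic Pmaip1 (Noxa) had 50.8 CPM in aged and 12.6 CPM in young spleen, a ratio of 4.04 (2.74 to 6.13). Trp53inp1, a p53 cofactor, had 280 CPM in aged and 124 CPM in young CD4 T cells. Microglia had 2 higher and 2 lower of 19, and border macrophages 1 and 1 of 11. Their median log2 ratios were 0.165 in CD4 T, −0.08 in CD8 T and −0.06 in B cells, and 0.09 in microglia and −0.21 in border macrophages. Trp53 itself had 55.9 CPM in aged and 74.1 CPM in young NK-like cells, with ratios of 0.75 in NK, 0.66 in CD4 T, 0.73 in CD8 T and 0.64 in B cells. In microglia it had 63.0 CPM in aged and 63.3 CPM in young brain. Of the 12 to 13 genes measured among p53 and its regulators, at most 2 passed the fold in any spleen class or in microglia. The antiproliferative Tob2, a relative of Btg2, had 295 CPM in aged and 167 CPM in young NK-like cells, with ratios of 1.86 in CD4 T, 1.71 in CD8 T and 1.65 in B cells. Among cyclins, CDKs and the RB family, 0 of 11 measured genes passed the fold in NK-like cells, and cyclin D2 (Ccnd2) had 405 CPM in aged and 591 CPM in young spleen. In the other classes 2 were higher and 1 lower of 10 in CD4 T cells, 1 lower of 9 in CD8 T cells, 1 higher and 1 lower of 13 in B cells, and 1 higher and 2 lower of 14 in microglia. Border macrophages had 5 higher of 10.

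Genes tied to senescence by secretion were mixed. Of 28 such genes, 8 were measured in NK-like cells, with 5 higher and 0 lower past the fold, among them Vegfa at 187 CPM in aged and 53.9 CPM in young spleen. In CD4 T cells 5 were higher and 4 lower of 11, among them Spp1 (osteopontin) at 121 CPM in aged and 1.22 CPM in young spleen. The part of the larger aged share of cluster 15 in these CD4 T values was not tested. Microglia had 4 higher and 3 lower of 18. Of 9 nuclear and lysosomal senescence markers, 8 were measured in NK-like cells and 0 passed the fold. In CD4 T cells 1 was higher (Lmnb1, 1.87) and 1 lower (Bcl2l1, 0.52) of 8, and in B cells 1 was higher and 1 lower of 9. None of 7 in CD8 T cells or of 6 in border macrophages passed it, and in microglia 1 of 9 was higher. In the urokinase system, which holds Plaur's ligand and partners, 3 genes were higher and 1 lower of 6 in NK-like cells, and 1 was higher of 5 in B cells. Microglia had 3 higher and 0 lower of 11 there, led by Vtn at 6.33-fold. Vtn is also the first gene of cluster 11, a mural or fibroblast cluster of 171 aged and 4 young brain cells, and the part of its RNA was not tested.

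Immediate early genes, which are also induced while tissue is dissociated, differed between ages as well. In NK-like cells 16 of 26 were past 1.5-fold higher in aged spleen and 1 lower, and Nr4a3 had 304 CPM in aged and 60.9 CPM in young spleen. The CD4 T class had 11 higher and 2 lower of 25, CD8 T cells 12 and 2 of 25, and B cells 8 and 1 of 25. Microglia had 0 higher and 13 lower of 24 in aged brain, and border macrophages 1 and 9 of 18. Their median log2 ratios were 0.695, 0.53, 0.55 and 0.24 in NK, CD4 T, CD8 T and B cells, and −0.645 and −0.66 in microglia and border macrophages. The sign of these medians is that of the Cdkn1a log2 ratio in each of the 6 classes. In border macrophages, though, the interval of the Cdkn1a ratio, 0.41 to 1.09, includes 1. A link between these medians and Cdkn1a was not tested. Fos was an exception in NK-like cells, at 551 CPM in aged and 934 CPM in young spleen. In aged brain NK-like cells 23 of 26 were lower than in aged spleen ones and 0 higher. Heat shock genes had median log2 ratios of 0.13 in NK and −0.29 in B cells and −0.35 in microglia. The part of these responses in the members' ratios was not tested.

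**Figure D5:**
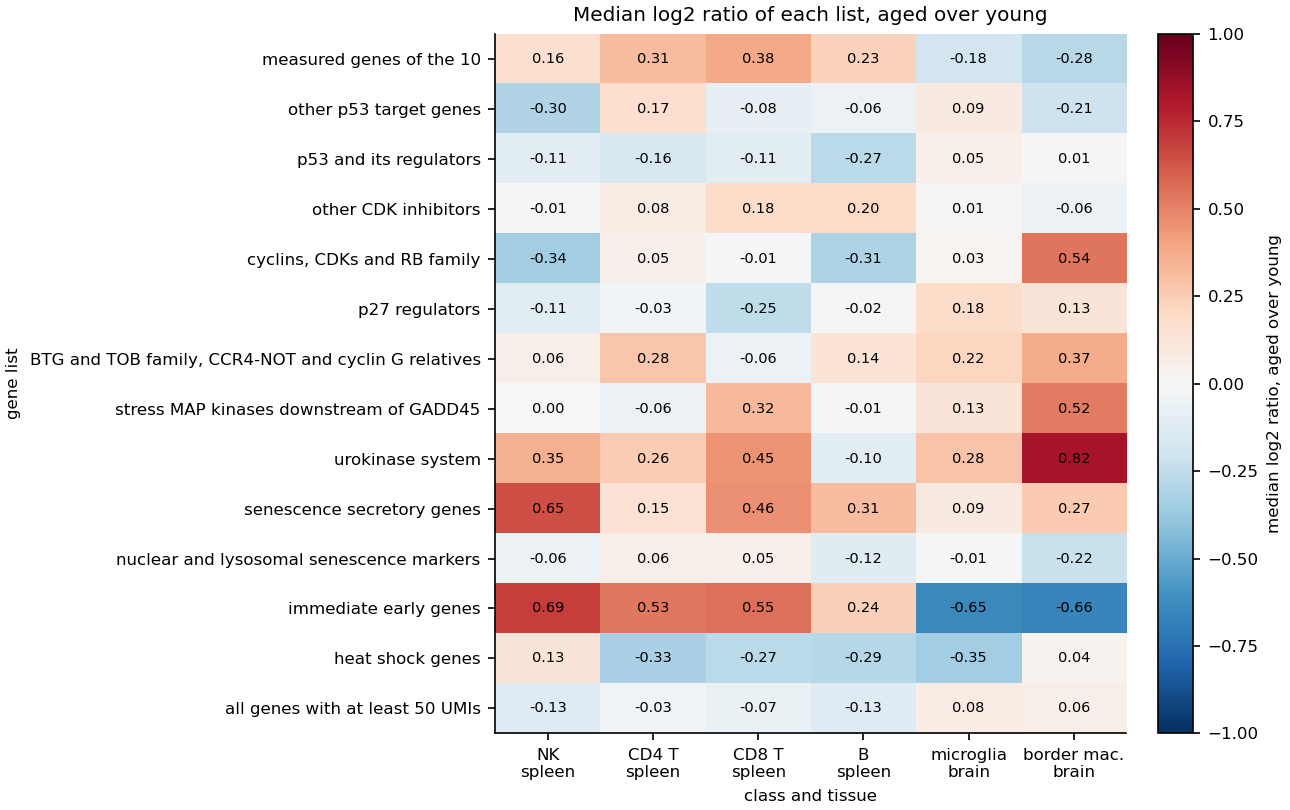
Median log2 ratio, aged over young, of the measured members and of 12 gene lists in 6 classes (red higher in aged, blue lower), with all measured genes in the bottom row. Immediate early genes have 0.695 in NK-like cells and −0.645 in microglia, while other p53 target genes have −0.30 and 0.09.

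Within aged NK-like cells thinned to 1000 UMIs, Gadd45b was found in 38 of 97 cells with Cdkn1a (39.2%, 29.4 to 49.6) and in 172 of 638 without it (26.96%, 23.6 to 30.6). In young NK-like cells the shares were 12.2% of 98 and 10.4% of 1656. The intervals overlapped in aged NK-like cells. Among aged CD4 T cells the shares were 38.9% of 36 (23.1 to 56.5) and 18.8% of 542 (15.6 to 22.4). In aged CD8 T cells they were 15.4% of 13 and 11.6% of 387, and in aged microglia 0% of 79 and 0.41% of 6114. Btg2 showed no such contrast, at 59.8% and 59.4% of aged NK-like cells. Cells of 1 library share their source, so these are descriptions.

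The genes whose class levels ran most like those of Cdkn1a over 12 class and age profiles were Slc3a2, Tnfrsf1b and Ppp1r12c, with Pearson r of 0.88, 0.88 and 0.87 on log2(CPM + 1) among 8430 genes. For Gadd45b they included Sh2d2a and Nr4a3, with r of 0.98 and 0.97. For Mdm2 the first was Junb (0.96), for Plaur Eif2ak3 (0.95) and for Btg2 Srpr (0.92). Profiles share libraries, depth and free RNA, so r is a description. Across these profiles the highest level exceeded the lowest by 126-fold for Gadd45b, 110-fold for Plaur, 32.6-fold for Cdkn1a and 5.4-fold for Btg2.

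The authors' deposited tables compare each of their clusters with the other cells of 1 library. In the authors' deposited table for aged spleen, Cdkn1a was listed in 37.9% of a cluster led by Gzma and Ccl4 against 10.8% of other cells. That authors' deposited table also listed Cdkn1a in 35.6% of a cluster led by Ccl5 and Ly6c2 against 11.5% of other cells. A cluster led by S100a9 and S100a8 had it in 40.3% there, against 13.3% of other cells. In the same authors' deposited table Plaur was listed in 51.1% of a cluster led by Cd79a and Ebf1 against 8.7% of other cells. Btg2, in the authors' deposited tables, was found in 67.4% of an aged brain cluster marked by Cx3cr1 against 32.3% of other cells, and in 86.7% of a like young brain cluster against 32.5%. The authors' deposited table for aged brain also listed it in 75.3% of a cluster led by Cst3 and Fcer1g against 31.2%. In the authors' deposited table for young brain it was also in 47.6% of a cluster led by Adap2os and Csf1r against 45.3%. Cdkn2a was in none of the authors' deposited tables, and Cdkn1a was in neither that for aged brain nor that for young spleen.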

How the data were processed

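The authors deposited 4 unfiltered matrices of raw UMI counts, each of 31053 mouse genes by 6794880 barcodes, written by software 3.1.0 per the file headers. Cell Ranger 1.3.1 and the human build GRCh38 stand in the submitters' processing notes, against the mouse gene identifiers, so how the counts were annotated is uncertain. How reads matching several genes were counted is not stated. The authors' deposited tables list, per cluster, fractions of cells with a gene, p-values and a log ratio, entered as natural log though its base is not stated, and the fractions alone were used.

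Barcodes kept had at least 500 UMIs, 250 genes and at most 10% mitochondrial UMIs, and differed from free RNA (barcodes of at most 100 UMIs, 10000 simulations, false discovery rate 0.01) or exceeded 10% of the UMIs at the 99th percentile among the 3000 largest barcodes. Scrublet's automatic threshold marked 157 and 236 doublets in aged and young spleen. In brain it marked 0.0082% and 0.0342%, under 0.5%, so the 1190 and 615 highest scores in aged and young brain were removed instead (0.8% per 1000 cells). Leiden clustering (scanpy 1.11.5, igraph 0.11.9, Python 3.11.15) used 2000 variable genes without the 10 members, 30 components, 15 neighbours and resolution 1.0, and gave 24 clusters, named by 23 marker lists with a minimum score of 1.0. The naming rule was relaxed after the data were seen. Young brain barcodes with more UMIs in the aged spleen were left out. The UMIs of each class were summed by library and scaled to 1000000 (CPM). CPM have exact Poisson, shares Clopper-Pearson and ratios conditional binomial intervals at 95% (scipy 1.17.1), for counting error only. Where 1 library had 0 UMIs of a gene, its class was set to a floor of 3 counts. The ratio and interval code was tested on simulated data. Gene positions are from GENCODE M21 (GRCm38), in which 30934 of 31053 identifiers were found, and promoters from RefSeq.

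The members and the lists were chosen with earlier results of these data known. The 10 members are all named, and from each list up to 2 genes each way, ranked by the interval bound nearest to 1. Trp53 in microglia was added after its values were seen. Of the genes named by the likeness rule, 1 is not reported here. Alternatives were scaling by median of ratios, the UMI, mitochondrial and doublet filters, thinning to 1000 UMIs, shared barcodes left out, other clusterings, a fold of 2 and a minimum of 1 UMI.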

Additional observations from a re-analysis of the deposited data

Results flagged for a closer look

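The aged over young ratios of Cdkn1a lay above 1 in spleen and below 1 in brain, and this difference between tissues was not tested, since each group is 1 library. They were 2.51 in NK-like, 3.71 in CD4 T, 3.34 in CD8 T and 2.503 in B-like cells of the spleen, against 0.50 in microglia and 0.66 in border macrophages of the brain. At barcodes of 1 library the NK-like ratio was 1.34 (0.79 to 2.14), the CD4 T one 3.93 (1.98 to 7.44), the B-like one 1.92 (0.50 to 5.29), and CD8 T cells had 0 UMIs. The border macrophage interval, 0.41 to 1.09, includes 1, and that ratio was 1.06 with the members in the clustering. The microglial level lay at or below the free RNA, whose part in the ratio was not tested. The ratios of Gadd45b also lay on both sides of 1, which was not tested. They were 3.41 in NK-like, 2.70 in CD8 T and 2.04 in B-like cells of the spleen, against 0.37 in microglia, where its level lay below the free RNA. Border macrophages, the other brain class, had 1.07 (0.37 to 4.24) from 25 aged and 4 young UMIs, too few for a call. In microglial cluster 16 the ratio was 1.31 (0.39 to 5.65). The CD8 T and B-like levels lay below the free RNA of the spleen as well. The classes compared differ between the tissues, so tissue and cell class cannot be told apart.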

How the results depend on the processing

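No paired analysis was possible because each group is 1 library and the labels give no replicate numbers; for the same reason no library could be left out. The counts of members past 1.5-fold in NK-like cells (3) and microglia (4) stayed within 1.5 times the main count under each of the 13 alternatives. In CD4 T cells the count of 3 became 0 after thinning, 1 at a mitochondrial limit of 5% and 5 without barcodes of 2 libraries. In CD8 T cells the count of 3 became 1 after thinning. In B cells the count of 4 became 2 at the 5% limit and 2 without barcodes of 2 libraries. In border macrophages the count of 1 became 0 under median-of-ratios scaling, thinning, doublets kept, at least 1000 UMIs, clustering with the members, another clustering seed and a fold of 2, and 3 with a minimum of 1 UMI. For NK-like cells of aged brain over aged spleen the count of 6 became 2 without barcodes of 2 libraries. Thinning leaves fewer members at 50 UMIs, and the cause of the other changes was not tested.

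Of 562 values for 55 ratios under the alternatives, 522 kept to their intervals, 38 moved and 2 reversed: Gadd45g in B cells, at 1.10 without barcodes of 2 libraries, and Cdkn1a in border macrophages, at 1.06 with the members in the clustering. Cdkn1a in NK-like cells was 1.34, under the fold, without barcodes of 2 libraries. Cdkn1a in CD8 T cells was 1.47 at the 5% mitochondrial limit, and Gadd45b in CD4 T cells was 1.53, past the fold, under median-of-ratios scaling. Median-of-ratios scaling shifted log2 ratios by at most 0.12 in age comparisons. Depth limits Cdkn2a and the 20 NK-like cells of the aged brain.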

Other observations

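Outside the 6 classes, the CPM of Cdkn1a was highest in endothelial-like cells of the aged brain, at 188 CPM and in 39.9% of cells (median 2982 UMIs). Cycling-like cells of the aged spleen had Cdkn1a in a larger share, 42.9% (median 13927 UMIs), at 93.9 CPM. In the authors' deposited table for young brain it was listed in 32.4% of a cluster led by Cldn5 and Flt1, genes of endothelium, against 4.6% of other cells. Plaur was highest in neutrophil-like cells of the young spleen, at 242 CPM and in 66.7% of cells. Cdkn2a reached 14.8 CPM in the aged brain cells of cluster 14, a cluster with cycling genes, from 6 UMIs in 88 cells. These cells were compared with no other group.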
